A study of Homo sapiens with 12 samples.

Results

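The 10 genes described here encode the core of Polycomb repressive complex 2 (PRC2), namely EZH2, EZH1, EED, SUZ12 and RBBP7, and the enzymes and partners that write and maintain DNA methylation, namely DNMT1, DNMT3A, DNMT3B, UHRF1 and HELLS. They were chosen by symbol, and all 10 were among the 25369 genes listed in the counts and among the 16625 genes that passed the filter on low counts. RNA-seq counts came from 12 samples of U2OS cells, a human osteosarcoma line, with 3 replicates in each of 4 stable Tet-On cell lines. The pTRE line carried the empty vector, the WT line HA-tagged wild-type E2F-1, the R109K line an HA-tagged derivative with 1 arginine changed to lysine, and the KK line an HA-tagged derivative with a pair of such changes close by. Every line, pTRE included, received 1 ug/ml doxycycline for 24 hours and grew with G418 and hygromycin B. The derivatives cannot be methylated at the changed arginines, and each was expressed in cells that also had their own E2F1. Whether a line was 1 clone or a pool is not stated in the sources used here, and each construct is represented by 1 stable line, so that the construct and the line cannot be told apart.

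PRC2 places methyl groups on lysine 27 of histone H3, a mark of silent genes. EZH2 is its catalytic subunit in dividing cells and EZH1 the alternative one, EED binds the finished mark and stimulates the enzyme, SUZ12 holds the complex together, and RBBP7, like its relative RBBP4, is a histone-binding subunit shared with other chromatin complexes. DNMT1 copies CpG methylation onto new DNA during replication, and UHRF1 recognises hemimethylated sites and recruits it. DNMT3A and DNMT3B methylate sites that carried no mark, and HELLS is a chromatin remodeler that opens nucleosomal DNA to these enzymes. Several of the genes are transcribed mostly in dividing cells.

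E2F1 is a transcription factor that binds short GC-rich elements near transcription starts, and the promoters of the 10 genes were therefore read for such letters. RefSeq promoter windows on GRCh38 were found for all 10 genes, 19 windows in all, each of 300 bases from 250 bases before the start of transcription onwards. The 8-letter E2F patterns searched were TTTCCCGC, TTTGGCGC, TTTCGCGC and TTTGCCGC on both strands, and the 7-letter form drops the first T of each, so that every 8-letter match also holds a 7-letter match. Positions count the first transcribed base as 1, with negative values upstream and no position 0. The stretches below run from 120 bases upstream and are 140 bases long, with 8-letter matches in capitals, or 7-letter matches where they are no longer. They are shown for the 4 genes whose RNA changed in at least 1 line (EZH2, EED, RBBP7 and DNMT3B) and for DNMT1, UHRF1 and HELLS, which have a match and did not pass the test in any line. EZH1 and SUZ12 also have a match and did not pass, and their stretches are not shown. The second start of EZH2 and the first start of RBBP7, also not shown, have no E2F match.

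EZH2, chr7:148884272-148884411, minus strand: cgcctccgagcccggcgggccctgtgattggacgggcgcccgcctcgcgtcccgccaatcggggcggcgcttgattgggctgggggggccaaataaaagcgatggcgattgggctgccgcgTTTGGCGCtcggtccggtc
EED, chr11:86244633-86244772, plus strand: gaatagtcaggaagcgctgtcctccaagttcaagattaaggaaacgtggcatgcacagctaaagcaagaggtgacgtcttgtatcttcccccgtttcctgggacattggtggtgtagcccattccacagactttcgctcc
RBBP7, second start, chrX:16869844-16869983, minus strand: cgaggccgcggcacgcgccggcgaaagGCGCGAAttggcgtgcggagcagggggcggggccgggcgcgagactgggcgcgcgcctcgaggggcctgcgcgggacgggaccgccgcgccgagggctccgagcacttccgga
DNMT3B, chr20:32779732-32779871, plus strand: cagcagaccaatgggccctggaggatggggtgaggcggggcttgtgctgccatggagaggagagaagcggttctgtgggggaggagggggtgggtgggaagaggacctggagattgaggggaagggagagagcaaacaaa
DNMT1, chr19:10194934-10195073, minus strand: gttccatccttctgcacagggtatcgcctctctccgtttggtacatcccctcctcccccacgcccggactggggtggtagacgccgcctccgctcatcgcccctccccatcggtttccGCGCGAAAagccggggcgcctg
UHRF1, first start, chr19:4909381-4909520, plus strand: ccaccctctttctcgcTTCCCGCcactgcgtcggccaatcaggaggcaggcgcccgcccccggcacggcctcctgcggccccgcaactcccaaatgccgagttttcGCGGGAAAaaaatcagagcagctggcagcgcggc
HELLS, chr10:94545668-94545807, plus strand: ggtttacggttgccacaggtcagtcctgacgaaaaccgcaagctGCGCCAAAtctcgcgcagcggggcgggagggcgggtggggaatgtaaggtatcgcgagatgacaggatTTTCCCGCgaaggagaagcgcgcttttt

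An 8-letter match was present in a window of 6 of the 10 genes, compared with 3.99% of the 27303 genes in the RefSeq table. The EZH2 match begins at position 2, that of DNMT1 at -2, that of UHRF1 at -14, and those of HELLS at -76 and -8. EZH1 has a match at -115 and SUZ12 at -189, and the second start of UHRF1 has one at -160. With 7 letters, RBBP7 joined the set with a match at -93 of its second start, giving 7 of 10 genes compared with 15.3% of all genes. EED, DNMT3A and DNMT3B had none in these windows. The CHR element TTTGAA, a site of cell cycle genes, was found in 2 of the 10 genes on either strand, at -173 of SUZ12 and at 21 of the sixth start of DNMT3A, compared with 18.2% of all genes. Of the 4 genes whose RNA changed in at least 1 line, 1 has an 8-letter match and 2 a 7-letter match, and of the 6 genes that did not pass in any line, 5 have both, a difference that was not tested. A match is a match of letters and no measurement of binding.

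**Figure D1:**
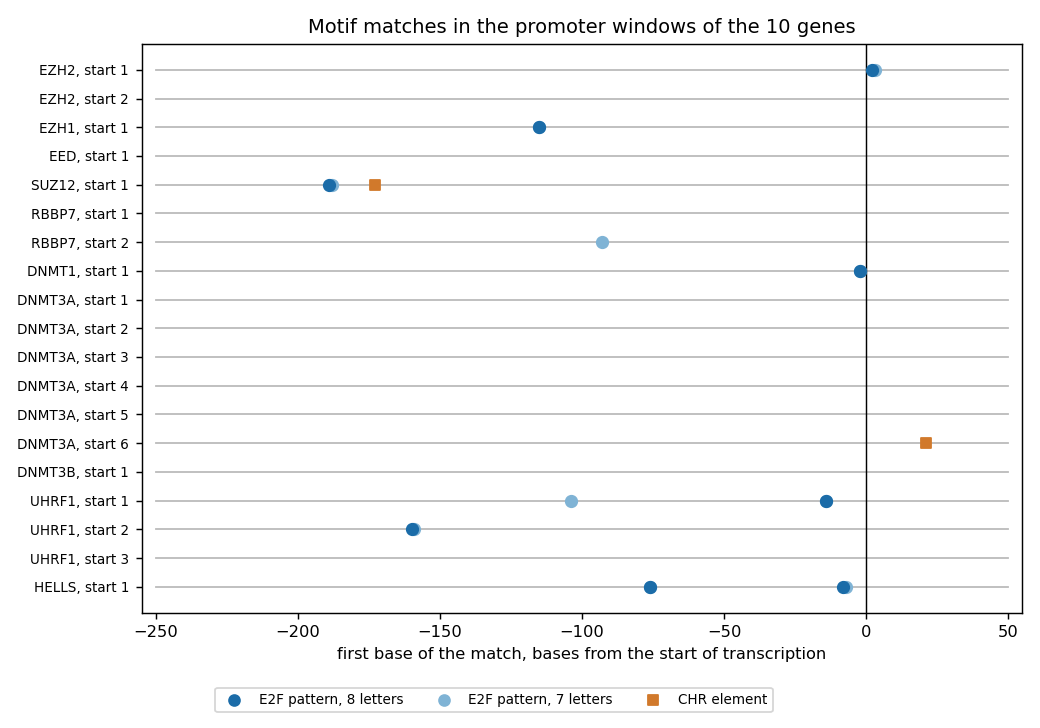
Each grey line is 1 promoter window of the 10 genes and each symbol the first base of a match, with the distance from the start of transcription in bases on the x axis. Matches of 8 letters lie between position -189 and position 2, and the EED and DNMT3B lines carry no symbol.

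Libraries held between 11500537 and 31040903 reads on genes. The 10 genes had between 401 and 9693 reads in each sample. WT replicate 2 stood apart, since 31.2% of its reads fell on genes and 58.7% outside them, compared with 23.6% to 29.6% outside genes in the other samples. E2F1 itself was higher in all 3 lines, with a mean of 91.2 CPM (read counts scaled to library size, TMM-normalized) in pTRE, 1811 in WT, 1158 in R109K and 1316 in KK, and these values hold the construct and the cells' own gene together. Of the osteosarcoma and mesenchymal markers, 7 of 8 were detected, and COL1A2 stayed at 0.588 CPM or less. Their summed level moved with the lines, lying between 6336 and 7591 CPM in the pTRE samples, 2262 and 2896 in WT, 2722 and 3326 in KK, and 3428 and 3505 in R109K. In CPM, COL1A1 moved most, with means of 3557, 567, 662 and 842 in pTRE, WT, KK and R109K. SPARC followed, with 1613, 626, 743 and 822, whereas VIM moved less, with 1554, 1305, 1492 and 1653. The 6 epithelial markers summed to between 786 and 975 CPM in pTRE, 371 and 593 in WT, 477 and 668 in KK, and 529 and 619 in R109K, with KRT19 at 0.107 CPM or less. Most of this sum was KRT8 and KRT18, with means of 503 and 288 CPM in pTRE. CLDN4, EPCAM and CDH1 had means of 46.7, 12.3 and 1.38 CPM there. Blood and endothelial markers summed to at most 1.61 and 0.761 CPM. The part of these differences in the results on the 10 genes was not tested.

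Against pTRE, EZH2, EED and RBBP7 rose and DNMT3B fell in at least 1 line, while DNMT1, DNMT3A, UHRF1, HELLS, EZH1 and SUZ12 did not pass the test in any line. A gene passed at an adjusted p-value under 0.01 in edgeR's quasi-likelihood test across all genes, and was called regulated if it also changed more than 2-fold. In WT, 3 of the 10 genes passed, compared with 26.2% of all genes tested (2 higher, against 14.8%, and 1 lower, against 11.4%). In KK, 4 passed, compared with 24.4% (3 higher, against 13.8%, and 1 lower, against 10.7%), and in R109K 1 passed higher and 0 lower, compared with 17.3% in either direction, 10.0% higher and 7.23% lower. None of the 10 was regulated, whereas 11.8%, 10.9% and 7.19% of all genes were regulated in WT, KK and R109K. The median log2 fold change over the 10 genes was 0.16 in WT, 0.03 in KK and 0.04 in R109K, beside 0.00, -0.01 and 0.00 over all genes. The replicates of pTRE and of the E2F1 line did not overlap for 5 of the 10 genes in each of the 3 comparisons, against 51.5% of all genes in WT, 49.4% in KK and 47.2% in R109K. The 3 comparisons share the pTRE samples. In bulk RNA, fewer cells that express a gene and less RNA per cell cannot be told apart, and the p-values measure the spread between samples of 1 stable line each.

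**Figure D2:**
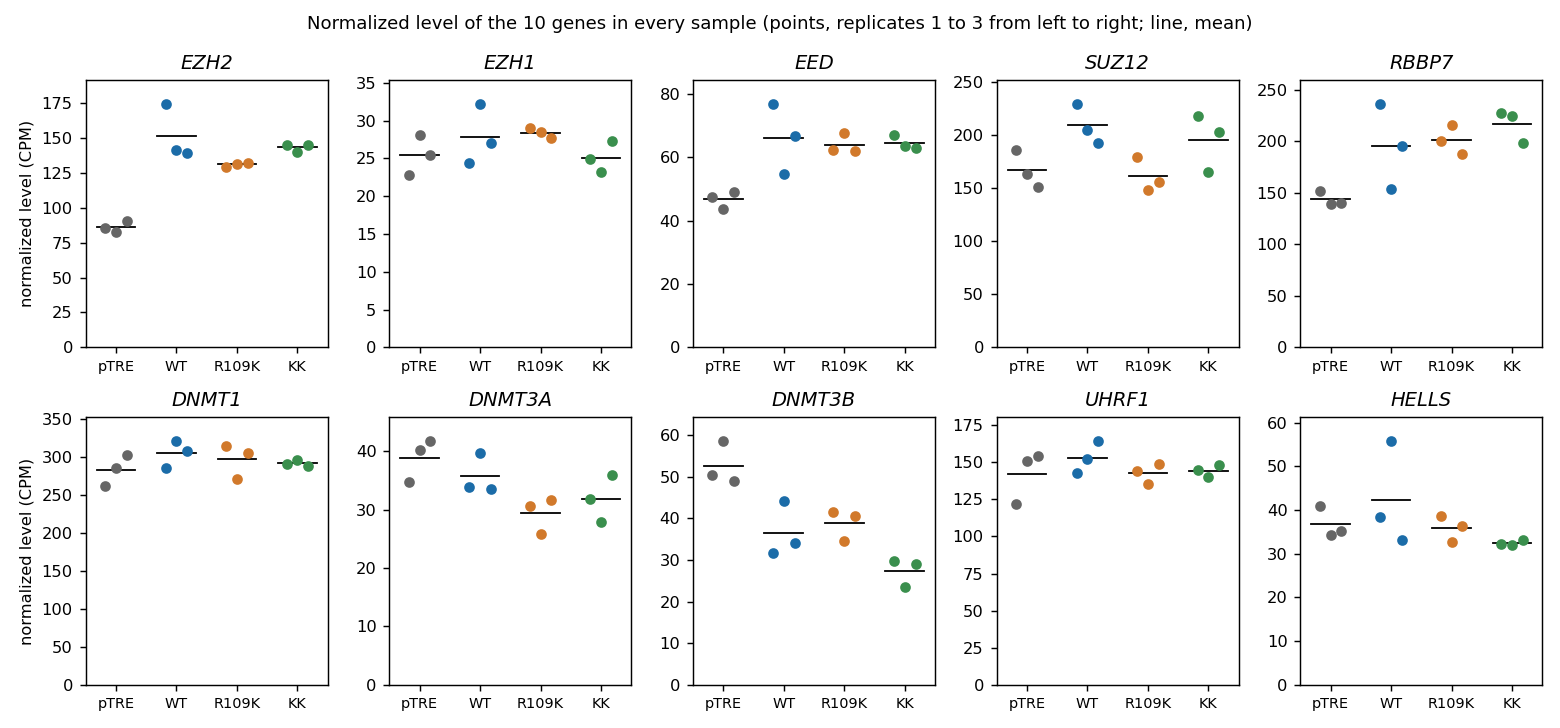
The panels show the normalized level in CPM of each of the 10 genes in the 12 samples, with a point per replicate and a line at the mean of the 3 replicates. EZH2 in pTRE lies between 82.8 and 90.1 CPM, below every sample of the other lines, and DNMT3B in KK lies between 23.4 and 29.8 CPM, below every other sample.

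EZH2, the catalytic subunit, rose in all 3 lines. Its locus runs from 148504349 to 148581413 of chromosome 7 (minus strand, GRCh37, as for all gene positions here). Its level was 85.7, 82.8 and 90.1 CPM in pTRE replicates 1 to 3. It was 174, 141 and 139 CPM in WT, 129, 131 and 132 CPM in R109K, and 145, 140 and 145 CPM in KK. Every sample of the E2F1 lines exceeded every pTRE sample, and replicate 1 of WT was the highest of all. The fold change was 1.75 in WT (95% interval 1.49 to 2.06, adjusted p = 3.5e-05), 1.66 in KK (1.41 to 1.95, adjusted p = 9.04e-05) and 1.52 in R109K (1.29 to 1.78, adjusted p = 0.000734). EZH2 kept its direction and passed whichever 1 replicate of the lines compared was left out.

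EZH1, the alternative catalytic subunit, did not pass the test. It occupies 40852293 to 40897067 of chromosome 17 (minus strand). Its level was 22.8, 28.1 and 25.4 CPM in pTRE and 24.4, 32.2 and 27.1 CPM in WT. It was 29.0, 28.5 and 27.7 CPM in R109K and 24.9, 23.2 and 27.3 CPM in KK. The samples of each line overlapped with those of pTRE. The log2 fold change was 0.13 in WT (95% interval -0.14 to 0.40), -0.02 in KK (-0.29 to 0.25) and 0.16 in R109K (-0.11 to 0.43), which leaves room for a change of up to 1.35-fold in R109K. Per kilobase of exon, the ratio of EZH2 to EZH1 was 2.22 ± 0.273 (SD, n = 3) in pTRE, 3.60 ± 0.923 in WT, 2.99 ± 0.103 in R109K and 3.71 ± 0.241 in KK, as a description without a test. With the longest transcript as the length, the mean ratios were 3.52, 5.71, 4.74 and 5.89, so that the value itself depends on the length used.

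EED, which reads the mark that PRC2 makes, rose in WT and KK. The gene spans 85912254 to 85989855 of chromosome 11 (plus strand). Its level was 47.5, 43.7 and 48.9 CPM in pTRE and 76.7, 54.8 and 66.6 CPM in WT. It was 62.2, 67.7 and 61.8 CPM in R109K and 67.0, 63.5 and 62.8 CPM in KK. No sample of an E2F1 line was as low as the highest pTRE sample. The fold change was 1.42 in WT (1.19 to 1.69, adjusted p = 0.00383), 1.38 in KK (1.16 to 1.65, adjusted p = 0.00663) and 1.37 in R109K (1.15 to 1.63, adjusted p = 0.0104), so that R109K just missed the threshold. EED passed in R109K with DESeq2 (adjusted p = 0.00261), with only the 6 samples compared (0.00244) and with at least 10 counts in every sample (0.00734). The call was close to the threshold in KK too, where it was lost whichever 1 of the 6 samples was left out (adjusted p from 0.0122 to 0.0402), and in WT it did not pass without replicate 1 or 2 of pTRE or replicate 1 or 3 of WT (adjusted p from 0.0138 to 0.0311). EED also missed the threshold in WT with only the 6 samples compared (adjusted p = 0.0140) and in KK with no filter on low counts (0.0126). Without WT replicate 2, the library with most reads outside genes, the WT call held, and the log2 fold change went from 0.50 to 0.62.

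RBBP7, a histone chaperone, rose in KK. Its locus runs from 16857406 to 16888485 of chromosome X (minus strand) and overlaps TXLNG on the other strand. Whether the counting used strand is not stated in the sources used here. Its level was 152, 139 and 140 CPM in pTRE and 236, 154 and 195 CPM in WT. It was 200, 216 and 188 CPM in R109K and 227, 224 and 198 CPM in KK. All samples of the E2F1 lines lay above those of pTRE, with WT replicate 2 only just above. The fold change was 1.51 in KK (1.23 to 1.85, adjusted p = 0.00375), and in WT and R109K it was 1.36 (1.11 to 1.67, adjusted p = 0.0202) and 1.40 (1.14 to 1.72, adjusted p = 0.0168). Without WT replicate 2, the log2 fold change in WT went from 0.44 to 0.58 and passed (adjusted p = 0.00109). In KK the call was lost when any 1 pTRE replicate, or KK replicate 1 or 2, was left out (adjusted p from 0.0106 to 0.0220). DESeq2 called RBBP7 in WT and R109K too (adjusted p = 0.00906 and 0.00500), as did edgeR in R109K with only the 6 samples compared (0.00120). Its relative RBBP4 had log2 fold changes of 0.00 in WT, -0.06 in KK and 0.08 in R109K.

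SUZ12, the scaffold of the complex, did not pass the test in any line. It occupies 30264026 to 30328057 of chromosome 17 (plus strand). Its level was 186, 163 and 151 CPM in pTRE and 229, 205 and 192 CPM in WT. It was 179, 148 and 156 CPM in R109K and 218, 165 and 203 CPM in KK. All WT samples lay above those of pTRE, while KK and R109K overlapped with them. The log2 fold change was 0.33 in WT (0.04 to 0.61, adjusted p = 0.0634), 0.23 in KK (-0.05 to 0.51, adjusted p = 0.198) and -0.05 in R109K (-0.33 to 0.23, adjusted p = 0.831). SUZ12 has a near-identical copy, the pseudogene SUZ12P1, and reads that aligned to both, within the 8.59% to 9.60% of reads that were not uniquely aligned, were not counted. SUZ12P1 had 33.1, 24.0 and 26.4 CPM in pTRE, 36.2, 68.5 and 31.1 CPM in WT, 26.6, 28.2 and 28.9 CPM in R109K and 35.5, 46.2 and 39.2 CPM in KK. Its highest value was in WT replicate 2, the library with most reads outside genes, and it did not pass in any line (log2 fold change 0.69 in WT, adjusted p = 0.0253).

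DNMT3B, an enzyme that sets new methylation in early development, fell in KK and WT. The gene spans 31350191 to 31397165 of chromosome 20 (plus strand). Its level was 50.5, 58.5 and 48.9 CPM in pTRE and 31.6, 44.2 and 34.0 CPM in WT. It was 41.6, 34.5 and 40.6 CPM in R109K and 29.8, 23.4 and 29.1 CPM in KK. Every sample of the E2F1 lines was below every pTRE sample, and KK was below the other lines without overlap. DNMT3B fell by 0.94 on the log2 scale in KK (95% interval -1.25 to -0.63, adjusted p = 0.000125), the largest change of the 10 genes against pTRE. It fell by 0.53 in WT (-0.84 to -0.22, adjusted p = 0.00867). In R109K the log2 fold change was -0.44 (-0.74 to -0.13, adjusted p = 0.0326). The KK call held whichever 1 replicate was left out, whereas the WT call was lost when any 1 pTRE replicate, or WT replicate 1 or 3, was left out (adjusted p from 0.0140 to 0.0439). The WT call was also lost with the replicate number as a block (adjusted p = 0.0169), with at least 10 counts in every sample (0.0112) and with only the 6 samples compared (0.0247), while R109K passed when only its own and the pTRE samples were fitted (0.00643). Without WT replicate 2, the library with most reads outside genes, the WT call held, and the log2 fold change went from -0.53 to -0.68.

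DNMT3A, the other enzyme of new methylation, did not pass the test. Its locus runs from 25450724 to 25565459 of chromosome 2 (minus strand). Its level was 34.7, 40.3 and 41.7 CPM in pTRE and 33.9, 39.8 and 33.6 CPM in WT. It was 30.6, 25.9 and 31.7 CPM in R109K and 31.9, 27.9 and 35.9 CPM in KK. R109K lay below pTRE without overlap, with a log2 fold change of -0.40 (-0.68 to -0.13, adjusted p = 0.0295). The log2 fold change was -0.28 in KK (-0.56 to -0.01, adjusted p = 0.0992) and -0.12 in WT (-0.40 to 0.15, adjusted p = 0.468). The ratio of DNMT3B to DNMT3A per kilobase of exon was 2.73 ± 0.325 (SD, n = 3) in pTRE, 2.04 ± 0.179 in WT, 2.65 ± 0.0801 in R109K and 1.73 ± 0.130 in KK, again as a description. TRDMT1, a relative of these enzymes by sequence that methylates transfer RNA, had log2 fold changes of -0.29, -0.48 and -0.34 in WT, KK and R109K and did not pass.

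DNMT1, the maintenance enzyme, did not pass the test and varied little. It occupies 10244018 to 10341962 of chromosome 19 (minus strand) and overlaps S1PR2 on the same strand. Its level was 261, 285 and 302 CPM in pTRE and 285, 320 and 308 CPM in WT. It was 314, 271 and 305 CPM in R109K and 290, 296 and 288 CPM in KK. The samples of all 4 lines overlapped. The fold change was 1.08 in WT (0.916 to 1.26, adjusted p = 0.455), 1.03 in KK (0.877 to 1.21, adjusted p = 0.796) and 1.05 in R109K (0.892 to 1.23, adjusted p = 0.700), so that these intervals leave out a rise of more than 1.26-fold in WT.

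UHRF1, the partner that brings DNMT1 to newly copied DNA, did not pass the test either. The gene spans 4903092 to 4962165 of chromosome 19 (plus strand). Its level was 122, 151 and 154 CPM in pTRE and 143, 152 and 164 CPM in WT. It was 144, 135 and 149 CPM in R109K and 145, 140 and 148 CPM in KK. Replicate 1 of pTRE was the lowest sample. The fold change was 1.08 in WT (0.910 to 1.27, adjusted p = 0.478), 1.01 in KK (0.858 to 1.20, adjusted p = 0.911) and 1.00 in R109K (0.847 to 1.18, adjusted p = 0.992).

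HELLS, the remodeler, did not pass the test in any line. Its locus runs from 96305086 to 96373662 of chromosome 10 (plus strand). Its level was 40.9, 34.2 and 35.3 CPM in pTRE and 38.3, 55.7 and 33.2 CPM in WT. It was 38.6, 32.6 and 36.4 CPM in R109K and 32.3, 31.9 and 33.2 CPM in KK. KK lay just below pTRE without overlap, and WT replicate 2 stood above all other samples. The log2 fold change was 0.20 in WT (-0.14 to 0.53, adjusted p = 0.335), -0.18 in KK (-0.52 to 0.16, adjusted p = 0.407) and -0.04 in R109K (-0.37 to 0.30, adjusted p = 0.894). Without WT replicate 2, the WT value was -0.04.

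**Figure D3:**
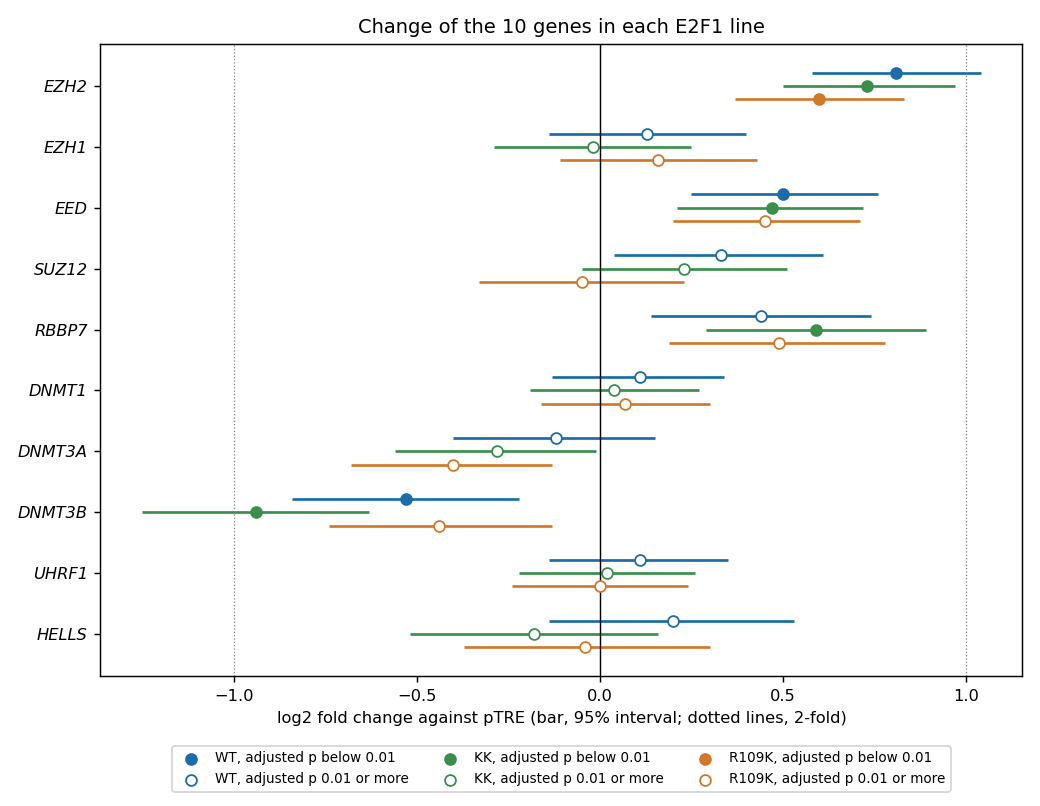
Points are log2 fold changes of each of the 10 genes in WT, KK and R109K against pTRE, bars are 95% intervals of the model, and filled points passed at an adjusted p-value under 0.01. EZH2 passed in all 3 lines, and DNMT3B in KK reaches -0.94, short of the dotted line for 2-fold.

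The direct comparisons asked whether the arginine derivatives differed from WT. None of the 10 genes passed in R109K against WT, where 0.710% of all genes passed, in KK against WT (0.0120%) or in R109K against KK (0.132%). At an unadjusted p-value under 0.05, 3714, 1415 and 2062 of all genes differed, and DESeq2, which called 546, 11 and 256 genes, called none of the 10 either. The replicates did not overlap for 3 of the 10 genes in R109K against WT, 1 in KK against WT and 3 in R109K against KK, beside 27.1%, 9.97% and 21.0% of all genes. DNMT3B had the largest difference, with a log2 fold change of 0.50 in R109K against KK (95% interval 0.20 to 0.81, adjusted p = 0.113) and of -0.41 in KK against WT (-0.72 to -0.10, adjusted p = 0.574), while R109K and WT differed by 0.09 (-0.21 to 0.40). SUZ12 had a log2 fold change of -0.37 in R109K against WT (-0.66 to -0.09, adjusted p = 0.127), with R109K below WT in every sample. EZH2 was lower in R109K than in every WT sample, by a log2 fold change of -0.21 (-0.44 to 0.02, adjusted p = 0.255). DNMT3A was also below WT in R109K without overlap, by -0.28 (-0.56 to 0.00, adjusted p = 0.219). HELLS had -0.38 in KK against WT (-0.71 to -0.04, adjusted p = 0.574), where the samples overlapped. For EED and RBBP7, the R109K level was 0.966 of WT (0.809 to 1.15) and 1.03 of WT (0.839 to 1.27). These intervals are wide enough to hold modest differences, and the E2F1 level itself was 0.639 of WT in R109K (0.492 to 0.831, adjusted p = 0.0577) and 0.727 of WT in KK (0.559 to 0.944, adjusted p = 0.574).

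Per kilobase of exon, the most abundant transcripts of the 10 in every line were UHRF1, SUZ12, RBBP7 and DNMT1. In pTRE the levels were 27.7 ± 3.44 CPM per kilobase (SD, n = 3) for UHRF1, 25.4 ± 2.71 for SUZ12, 19.6 ± 0.986 for RBBP7 and 18.4 ± 1.34 for DNMT1. UHRF1 and SUZ12 overlapped, as did RBBP7 and DNMT1. EZH2 was the fifth in each line, at 8.0 ± 0.341 CPM per kilobase in pTRE and 14.0 ± 1.82 in WT. It was followed in pTRE by DNMT3B at 7.65 ± 0.748, with which it overlapped, and EED at 6.68 ± 0.385. In the E2F1 lines EED was the sixth and DNMT3B the seventh, at 9.21 ± 0.322 and 3.99 ± 0.511 CPM per kilobase in KK. EZH1, DNMT3A and HELLS were the 3 lowest, at 3.64 ± 0.379, 2.82 ± 0.269 and 2.59 ± 0.252 in pTRE, where DNMT3A and HELLS overlapped. In KK, DNMT3B overlapped with EZH1 at 3.60 ± 0.295. With the longest transcript in place of all exons, the order among the 4 most abundant and among the 3 lowest changed, EED was above DNMT3B in pTRE too, and EZH2 stayed the fifth in each line.

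**Figure D4:**
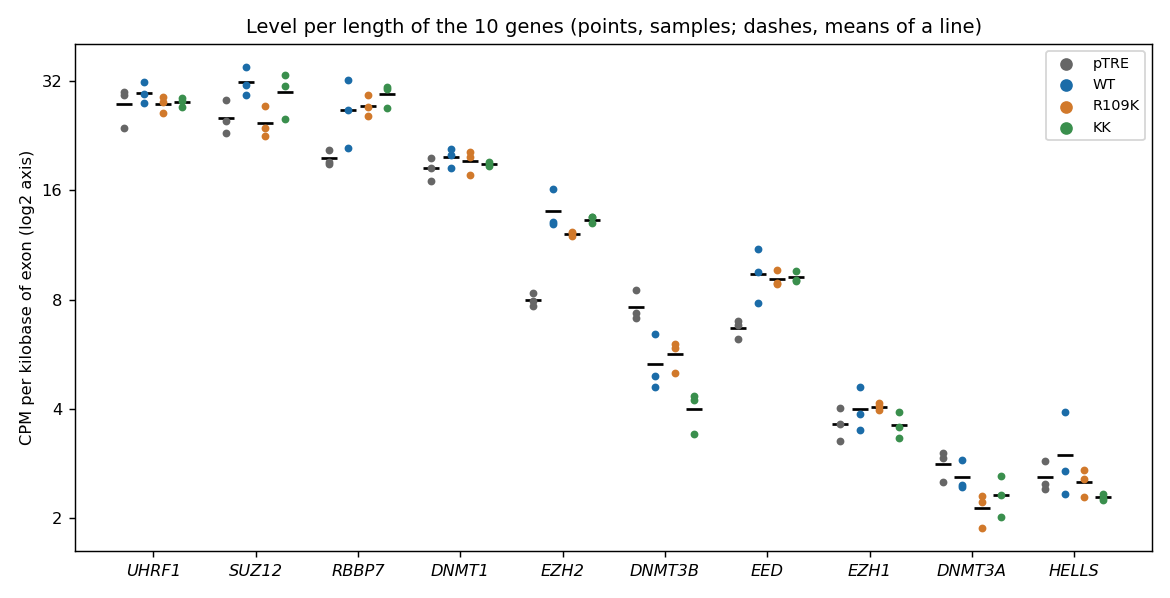
The y axis is CPM per kilobase of exon on a log2 axis, with a point per sample, a dash at the mean of each line, and the genes ordered by their level in pTRE. EZH2 moves from 8.0 in pTRE to between 12.1 and 14.0 in the other lines, and DNMT3B falls to 3.99 in KK.

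The spread between replicates, as the coefficient of variation, had a median over the 10 genes of 9.68% in pTRE, 13.6% in WT, 7.38% in R109K and 5.36% in KK. It reached 27.8% for HELLS in WT, where WT replicate 2 was the high sample. EZH2 had the lowest value in pTRE, 4.31%, and in R109K, 1.18%.

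By root-mean-square difference of log2 CPM around each gene's mean over the 12 samples, the patterns most like that of EZH2 among 13305 genes were SLC20A1 (0.0769), VKORC1L1 (0.0906) and ING1 (0.0912). Those most like DNMT3B were DDX60L (0.119), DOCK1 (0.123) and WDHD1 (0.128). Those most like EED were XPNPEP1 (0.0637), IDI1 (0.0764) and SOCS3 (0.0793), and those most like RBBP7 were UBE2E3 (0.0393), UBE2N (0.0501) and UBE2A (0.0583). Among the 10 genes themselves, DNMT1 and UHRF1 were closest, at 0.0670, and each was among the 5 genes most like the other. EED and RBBP7 followed at 0.0902. The PRC2 subunit most like EZH2 was EED, at 0.142 and rank 176.

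The wider pathway was read from 6 lists of 57 symbols, of which 54 were listed in the counts and 53 were tested. In WT, 16 of the 53 passed higher and 3 lower, or 35.8% compared with 26.2% of all genes. In KK, 10 passed higher and 3 lower, or 24.5% compared with 24.4%, and in R109K 9 passed higher and 2 lower, or 20.8% compared with 17.3%. The median log2 fold change over the 53 was 0.16, 0.08 and 0.14. None passed in the comparisons between the E2F1 lines.

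Of 10 other PRC2 subunits tested, 5 passed higher in WT, 3 in KK and 2 in R109K, and none lower, where 14.8%, 13.8% and 10.0% of all genes passed higher. The 5 in WT count both LCOR and C10orf12, which share a locus. C17orf96, also known as EPOP, an accessory subunit that links the complex to elongin, had the largest change of the wider lists. Its level was 3.55, 3.23 and 4.08 CPM in pTRE, 13.1, 11.6 and 14.3 CPM in WT, 14.7, 16.9 and 15.1 CPM in R109K and 12.9, 15.5 and 13.1 CPM in KK, without overlap. The log2 fold change was 1.85 in WT, 1.93 in KK and 2.10 in R109K (adjusted p = 2.14e-07, 1.31e-07 and 1.53e-07). LCOR, whose locus encodes an accessory protein of the complex, rose by a log2 fold change of 1.12 in WT (adjusted p = 0.000548) and 0.81 in KK (adjusted p = 0.00600), with 0.71 in R109K (adjusted p = 0.0178), and the split of reads between it and C10orf12 is uncertain. PHF19, a subunit that binds methylated histone H3, rose by 0.50, 0.55 and 0.44 in WT, KK and R109K. JARID2 and AEBP2, which define another form of the complex, had log2 fold changes between -0.22 and 0.12 and did not pass.

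Of the demethylases that remove the PRC2 mark, KDM6A rose in WT (log2 fold change 0.67, adjusted p = 0.00193). It had log2 fold changes of 0.42 in KK and 0.17 in R109K (adjusted p = 0.0338 and 0.418), which did not pass. KDM6B fell by 0.83 in KK and by 0.82 in R109K (adjusted p = 0.000116 and 0.000189), with a log2 fold change of -0.43 in WT (adjusted p = 0.0130). KDM6B levels were 31.8, 37.2 and 40.1 CPM in pTRE and 20.5, 19 and 22 CPM in KK, without overlap.

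Of 21 genes for subunits of PRC1, the complex that binds the PRC2 mark and ubiquitinates histone H2A, 6 passed higher and 1 lower in WT, 5 higher in KK and 4 higher in R109K. These were 33.3%, 23.8% and 19% of the list, near the 26.2%, 24.4% and 17.3% of all genes. CBX7, which reads the mark, had 27.2, 27.6 and 31.7 CPM in pTRE and 74.6, 62.0 and 73.6 CPM in WT, and its log2 fold change was 1.28 in WT, 1.24 in KK and 1.30 in R109K (adjusted p = 6.41e-07, 8.23e-07 and 1.06e-06). CBX7 was the one regulated gene of this list. PHC2, a Polyhomeotic subunit, rose by 0.77, 0.71 and 0.43 in WT, KK and R109K, and YAF2, a partner of RING1, by 0.91 in WT and 0.75 in KK, with 0.49 in R109K (adjusted p = 0.0284). RING1, a catalytic subunit, fell by 0.70 in WT (adjusted p = 0.00315), with -0.54 in KK and -0.37 in R109K. Its level was 72.7, 72.5 and 88.1 CPM in pTRE and 51.4, 35.5 and 56.1 CPM in WT, lowest in WT replicate 2.

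Among 6 partners of DNMT1, UHRF1 and HELLS tested, UHRF2, the relative of UHRF1, rose by a log2 fold change of 0.88 in WT, 0.65 in KK and 0.60 in R109K (adjusted p = 7.29e-05, 0.00100 and 0.00244). CDCA7, which works with HELLS, fell by 0.74 in WT, 0.87 in KK and 0.60 in R109K (adjusted p = 0.000502, 0.00014 and 0.00335). Its level was 34.2, 32.8 and 32.7 CPM in pTRE, and 22.7 CPM or less in every sample of the E2F1 lines. ZBTB24, a zinc-finger factor of the same pathway, rose by 0.58 in WT (adjusted p = 0.00315), with 0.48 in KK and 0.41 in R109K. CDCA7L, the relative of CDCA7, had 101, 91.1 and 90.6 CPM in pTRE and 155, 142 and 149 CPM in R109K. It rose in R109K (log2 fold change 0.66, adjusted p = 0.000769), with 0.11 in WT and 0.05 in KK. R109K lay above WT and KK without overlap, by 0.54 and 0.61 (adjusted p = 0.0234 and 0.0281), which did not pass. PCNA, the sliding clamp of replication that DNMT1 binds, did not pass, with log2 fold changes of -0.24, 0.02 and 0.19.

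Among 6 TET and base excision genes, which act in the removal of methylation, APEX1, a base excision endonuclease, fell by 0.90 in WT and by 0.77 in KK (adjusted p = 0.00112 and 0.00333), with -0.64 in R109K. TET3, which oxidizes methylcytosine, rose by 0.87 in WT (adjusted p = 0.00426), with 0.49 in KK and 0.14 in R109K. In WT, APEX1 had 200, 122 and 216 CPM and TET3 258, 320 and 207 CPM. WT replicate 2, the library with most reads outside genes, was thus the lowest WT sample for APEX1 and the highest for TET3. SMUG1, a uracil glycosylase, had log2 fold changes of -0.32, -0.26 and -0.21 in WT, KK and R109K and did not pass. Of 8 methyl-CpG readers, MBD4, a glycosylase that repairs mismatches at methylated sites, was the one to pass, with 50.8, 50.2 and 46.0 CPM in pTRE and 104, 100 and 96 CPM in KK. Its log2 fold change was 0.94 in WT, 1.03 in KK and 0.93 in R109K (adjusted p = 2.03e-05, 9.19e-06 and 4.16e-05), so that it was regulated in KK. The share of this list that passed was 12.5% in each line, compared with 26.2%, 24.4% and 17.3% of all genes in WT, KK and R109K. MBD1 and ZBTB4 had log2 fold changes of 0.34 and -0.29 in WT and did not pass.

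**Figure D5:**
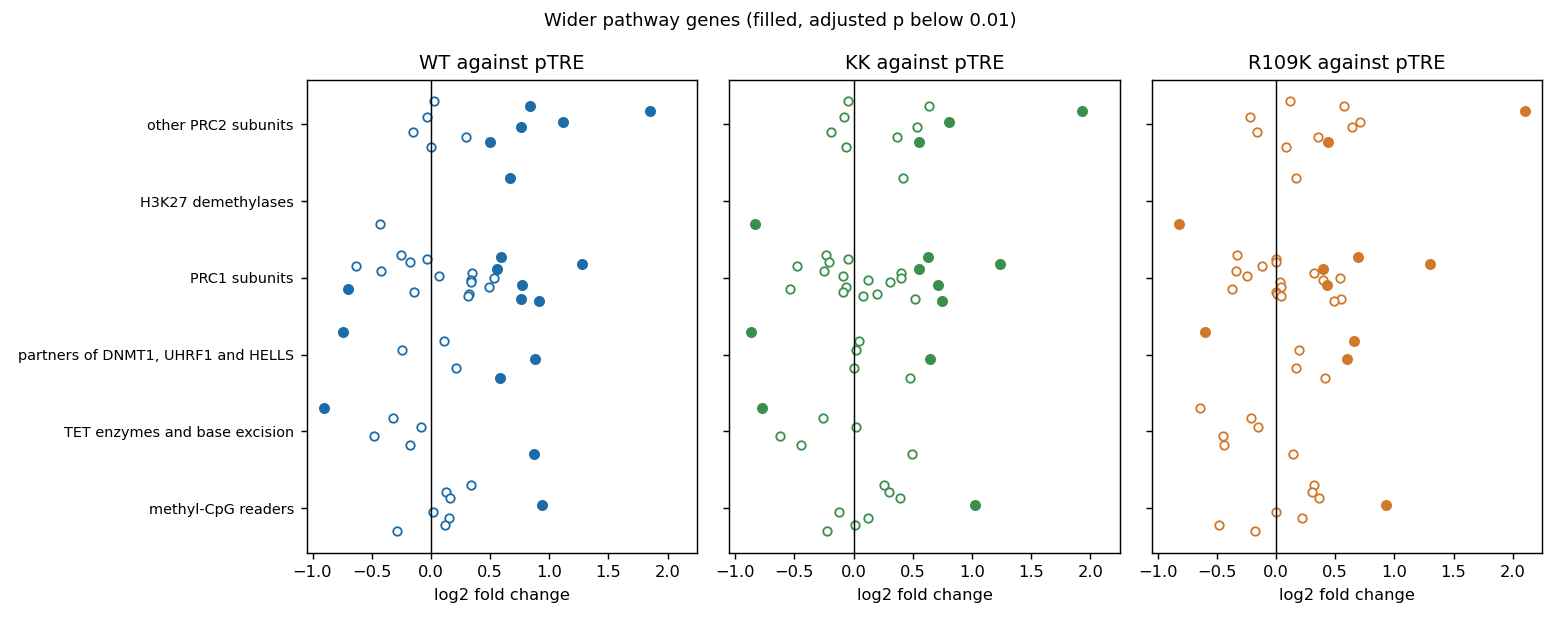
Each point is a gene of the 6 wider lists, with its log2 fold change against pTRE on the x axis and a filled point where the adjusted p-value was under 0.01. The rightmost points are C17orf96, at 1.85 in WT, 1.93 in KK and 2.10 in R109K, and 34 of 53 genes in WT, 40 in KK and 42 in R109K are open points.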

How the data were processed

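RNA-seq of 12 samples was analysed from counts. Per the labels and the study's methods, the authors trimmed poly(A)-selected, directional libraries with Trim Galore 0.4.3, aligned them to hg19 with STAR 2.5.1 and tested them with DESeq2 1.16.1. They deposited the raw count of reads on each of 25369 gene symbols per sample, followed by 5 summary lines that were left out of library sizes and tests. The gene annotation and the strand setting of counting are not given in the sources used here.

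Counts were analysed with edgeR 4.0.16 and limma 3.58.1 in R 4.3.3. The 16625 genes that filterByExpr kept were normalized by TMM and fitted by 1 quasi-likelihood model of the 4 lines. Benjamini-Hochberg adjustment was over all 16625 genes. Levels per length used the exons of GENCODE on GRCh37, which also gave the positions of genes. Promoter windows came from RefSeq (GRCh38). The edgeR test of WT against pTRE was tried on simulated counts with known changes, and the alternatives were not. Libraries of a line differed by at least 8.85 in chi-square per degree of freedom, so none was counted as a duplicate.

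Of the wider lists, the text names genes regulated in any line and, in each list, up to 3 with the smallest p-value in WT against pTRE. Genes most like a member were sought among those whose mean count reached 50, for the 4 members that changed most in WT. C10orf12, CDCA7L, RING1, JARID2, AEBP2, PCNA and RBBP4 were named after their values were seen. The 10 genes and the lists were chosen with earlier results of these data known. Alternatives were DESeq2 1.42.0, RLE normalization, other filters (none, or at least 10 counts in every sample), only the 6 samples compared, the replicate number as a block, an adjusted p-value under 0.05, glmTreat against 1.5-fold, and each replicate left out. Intervals are at 95%. Over the 10 genes, read counts per sample ran from 401 for EZH1 to 9693 for DNMT1.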

Additional observations from a re-analysis of the deposited data

How the results depend on the processing

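Of 420 values of the 10 genes against pTRE under the alternatives, 361 kept their direction and side of the threshold, 33 lost and 13 gained the call, and 13 changed sign. Of 420 values between the E2F1 lines, 407 were unchanged in this sense and 13 changed sign. EZH2 passed in all 3 lines under every alternative except glmTreat. The number of the 10 genes that passed was 3 in WT, 4 in KK and 1 in R109K. Tested against a 1.5-fold change with glmTreat it was 0 in each line. With only the 6 samples compared it was 1 in WT and 4 in R109K. In R109K it was also 2 with at least 10 counts in every sample, 5 at an adjusted p-value under 0.05 and 3 with DESeq2. Without 1 replicate it ranged from 1 to 4 in WT and from 2 to 3 in KK, and it was 1 in WT without pTRE 1, pTRE 2, WT 1 or WT 3 and 2 in KK without any 1 of the pTRE replicates, KK 1 or KK 2. The larger tested fold of glmTreat makes that test stricter, and the cause of the other shifts was not tested. Among all genes in R109K, DESeq2 called 3581 and edgeR 2868. For the other alternatives the share of all genes was not counted, so the shifts cannot be read as particular to the 10 genes.

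Of the 53 wider pathway genes, 2, 3 and 2 passed higher and 0, 0 and 0 lower in WT, KK and R109K with glmTreat. At an adjusted p-value under 0.05, 7 passed lower in WT, and 18 passed higher in KK and 18 in R109K. With only the 6 samples compared, 15 passed higher and 4 lower in R109K. Without 1 replicate, 11 to 15 passed higher and 2 to 4 lower in WT, 8 to 13 higher and 2 to 4 lower in KK, and 5 to 7 higher and 1 lower in R109K. In R109K, 5 passed higher without pTRE 1, pTRE 2 or R109K 1. The share of all genes was not counted for these settings either.

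Correlations of deviations between same-numbered samples ranged from -0.295 to 0.470 with a mean of 0.0436 over 18 pairs, of which 5 were over 0.1. Replicate numbers thus did not pair the samples throughout, and whether some of the lines shared a replicate effect was not tested. With the replicate block, 2, 4 and 1 of the 10 genes passed in WT, KK and R109K, and DNMT3B in WT was the call lost (adjusted p = 0.0169), with 16, 11 and 11 wider pathway genes higher and 3, 3 and 2 lower.

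The sign changed for 26 log2 fold changes near 0, all with adjusted p-values of at least 0.598 and all on leaving out 1 replicate. Over these omissions, HELLS in WT ranged from -0.04 (without WT 2) to 0.33, DNMT1 in KK from -0.02 (without pTRE 1) to 0.09, EZH1 in KK from -0.09 to 0.06 (without pTRE 2) and UHRF1 in KK from -0.08 (without pTRE 1) to 0.08. In R109K, SUZ12 ranged from -0.14 to 0.03, UHRF1 from -0.10 to 0.06 and HELLS from -0.10 to 0.04, each changing sign without pTRE 1 among others. In R109K against WT, EZH1 ranged from -0.05 to 0.14, EED from -0.17 to 0.07, RBBP7 from -0.10 (without WT 2) to 0.21 and DNMT1 from -0.08 to 0.03. In KK against WT, EZH2 ranged from -0.13 to 0.04 (without WT 1), EED from -0.15 to 0.09 (without WT 1) and SUZ12 from -0.17 to 0.01 (without KK 2). In R109K against KK, EED ranged from -0.06 to 0.01, DNMT1 from -0.02 to 0.09 and UHRF1 from -0.05 to 0.02.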
